A study of Homo sapiens with 8 samples.

Results

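The genes described are those whose symbol on the array begins with LINC. Followed by a number, it is the prefix given to long intergenic non-protein coding RNAs that have not been named for a function. Symbols of other forms that begin with these letters, such as LINC-PINT and LINCR-0002, were taken too. A transcript cluster, the unit for which the array gives 1 signal, was taken where its annotation held exactly 1 symbol and that symbol began with LINC, and the cluster with the highest mean over the 8 arrays was kept for each symbol. This gave 942 LINC genes among 33616 genes tested, from 969 LINC clusters in a file of 138745 clusters. Of the 942 genes, 846 could be matched by gene number to RefSeq, and RefSeq lists all 846 as long noncoding RNA. On the 843 of them for which both chromosomes were known, the array cluster and the RefSeq gene lay on the same chromosome.

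Total RNA from lymphoma cell lines was hybridised to 8 arrays in 4 groups of 2. The groups were HBL-1 cells with APRIL, HBL-1 cells with EDA, BJAB cells with APRIL and BJAB cells with EDA, each ligand at 1 µg/ml for 6 h, with all cells grown in RPMI1640 and fetal calf serum. HBL-1 is a diffuse large B-cell lymphoma line of the activated B-cell type, and BJAB is an Epstein-Barr virus-negative B-cell lymphoma line. APRIL, a cytokine related to tumour necrosis factor, engages BCMA and TACI on B cells. EDA is a relative of it with receptors of its own and served as the control. Each tumour type is represented by a single line, no unstimulated cells were analysed here, and the labels do not say whether replicates came from separate cultures, so the p-values measure the spread between these arrays, which may be technical.

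Long intergenic noncoding RNAs are transcribed by RNA polymerase II, and many are capped, spliced and polyadenylated like messenger RNAs. They are usually made in smaller amounts and in fewer cell types than messenger RNAs, and some act on the chromatin around their own gene while others act elsewhere in the cell. The number in a LINC name carries no meaning of its own, and most LINC genes have no established function.

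Start regions annotated in RefSeq are printed below for 4 LINC genes. Where transcription begins in these lines was not measured. The 4 are the genes with the largest difference between the lines in each direction, 2 higher and 2 lower in HBL-1. They were taken among those whose promoter is in the RefSeq table. It holds 250 bases before and 50 bases after the annotated start on GRCh38.p14. Capitals mark matches on either strand to the TATA box, read as TATAAA, to the CCAAT box, whose letters are its name, or to the E-box, read as CACGTG. LINC01278 lies on the minus strand at chrX:63561046-63561345, and the other genes lie on the plus strand, LINC00578 at chr3:177441671-177441970, LINC01088 at chr4:78971498-78971797 and LINC01060 at chr4:188455328-188455627.
LINC01278: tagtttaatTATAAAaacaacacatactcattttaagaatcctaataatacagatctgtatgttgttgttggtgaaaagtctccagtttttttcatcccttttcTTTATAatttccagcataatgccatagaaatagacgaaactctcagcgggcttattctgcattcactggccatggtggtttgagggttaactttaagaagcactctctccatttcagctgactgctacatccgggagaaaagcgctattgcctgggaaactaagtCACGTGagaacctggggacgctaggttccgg
LINC00578: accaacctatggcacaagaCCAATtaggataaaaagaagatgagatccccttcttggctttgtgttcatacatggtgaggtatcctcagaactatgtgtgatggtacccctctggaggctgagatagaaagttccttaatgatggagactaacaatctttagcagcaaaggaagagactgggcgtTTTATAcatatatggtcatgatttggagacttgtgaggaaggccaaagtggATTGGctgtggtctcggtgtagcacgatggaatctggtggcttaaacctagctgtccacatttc
LINC01088: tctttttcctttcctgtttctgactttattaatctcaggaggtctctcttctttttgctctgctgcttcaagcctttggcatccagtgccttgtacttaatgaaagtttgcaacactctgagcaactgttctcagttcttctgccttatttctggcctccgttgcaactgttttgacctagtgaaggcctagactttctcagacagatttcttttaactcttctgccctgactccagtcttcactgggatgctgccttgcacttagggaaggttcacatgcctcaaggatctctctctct
LINC01060: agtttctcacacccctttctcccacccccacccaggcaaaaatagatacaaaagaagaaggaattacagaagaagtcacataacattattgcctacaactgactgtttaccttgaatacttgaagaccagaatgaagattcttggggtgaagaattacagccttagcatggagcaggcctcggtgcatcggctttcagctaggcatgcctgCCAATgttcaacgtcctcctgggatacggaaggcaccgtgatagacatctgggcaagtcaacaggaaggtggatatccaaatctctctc
The LINC01278 window held 1 E-box and 2 TATA boxes, and that of LINC00578 held 1 TATA box and 2 CCAAT boxes. The LINC01060 window held 1 CCAAT box, and that of LINC01088 held none of these letters. A match describes the letters of the window and is not a measured binding site.

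Signals were low for most LINC genes. The deposited log2 signal of the LINC genes had an array median of 4.47 to 4.59, against 5.58 to 5.74 for all genes tested. The mean over 8 arrays was under 6 for 803 of the 942. Signals of different probe sets are not amounts of RNA on a common scale, so this comparison concerns the arrays' readout. The 23 control sets that the array carries for background had a 95th percentile of 7.80 to 8.25 per array. Their means ran from 2.69 to 10.18, so this percentile is a coarse limit that is not matched to a gene's own probes. Both arrays of a group exceeded it for 38 LINC genes in HBL-1 with APRIL, 33 in HBL-1 with EDA, 41 in BJAB with APRIL and 44 in BJAB with EDA. On none of the 8 arrays did the signal exceed it for 883 LINC genes, or 93.7%, against 53% of protein-coding genes and 67.4% of all genes. All 8 arrays exceeded it for 27 LINC genes.

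The 8 LINC genes with the highest signals were measured well above that limit in both lines. The highest was LINC01002, with 15.38 and 15.36 in HBL-1 with APRIL, 15.34 and 14.98 in HBL-1 with EDA, 15.78 and 15.74 in BJAB with APRIL, and 15.66 and 15.62 in BJAB with EDA. All 4 HBL-1 arrays lay below all 4 BJAB arrays, but the difference of -0.43 ± 0.15 (log2, SE) did not pass (limma adjusted p = 0.06). LINC01000, LINC01128, LINC03009 and LINC00999 did not pass either, with differences of -0.36, -0.07, -0.21 and -0.36. LINC00869 was lower in HBL-1, with a mean of 11.37 ± 0.08 in HBL-1 and 12.54 ± 0.20 in BJAB (SD, n = 4 arrays each, limma adjusted p = 1.51e-04). LINC00265 and LINC00623 were lower as well, by differences of -0.98 and -0.54 (limma adjusted p = 0.00367 and 0.0174). A dimmer cluster of LINC00623, which was not kept, had a difference of -0.70 (limma adjusted p = 0.00363 with every cluster fitted). The call of LINC00623 was lost without HBL-1 EDA replicate 1, BJAB APRIL replicate 2 or BJAB EDA replicate 2, where the limma adjusted p was 0.0502, 0.063 and 0.0705. LINC01002 passed without HBL-1 EDA replicate 1 (limma adjusted p = 0.0472) and with dim genes left out (0.0162), with equal array medians (0.05 after rounding) and with a variance trend (0.00206), and LINC01000 and LINC00999 also passed with dim genes left out (0.0305 and 0.0323), LINC01000 with the variance trend as well (0.0332).

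The first comparison asks which LINC genes the 2 lymphoma lines carry at different levels, over both ligands. At a limma adjusted p under 0.05, 106 of the 942 LINC genes differed, or 11.3%: 49 were higher in HBL-1 and 57 were lower. The background share was 24.2% of all 33616 genes, with 10.3% higher and 13.9% lower. Among protein-coding genes 34.5% passed, and among other long noncoding RNA genes 15.8%. The median difference was 0.05 over the LINC genes and 0.02 over all genes. Over the genes left when those under the background limit were dropped, it was -0.36 for 50 LINC genes and -0.13 for all 10142 genes. For 136 LINC genes, or 14.4%, the HBL-1 and BJAB arrays lay apart without overlap, 70 with HBL-1 above and 66 with HBL-1 below. Over all genes that share was 25.9%, with 11.5% above and 14.4% below. Of the 106, 54 differed by at least 1 on the log2 scale, which is 2-fold, against 4264 of the 8135 that passed over all genes. In the fit without the genes under the background limit, 38 of the 50 LINC genes passed, or 76%, against 62.3% of all genes in it. A gene can enter that fit through the line in which it is high, so its share is not independent of the difference.

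LINCR-0002 had the largest difference. Its signal was 9.99 and 9.91 in HBL-1 with APRIL and 9.61 and 9.56 in HBL-1 with EDA, against 3.93 and 4.13 in BJAB with APRIL and 3.57 and 4.11 in BJAB with EDA. Every HBL-1 array lay above every BJAB array, and the difference was 5.83 ± 0.16 (log2, SE; limma adjusted p = 2.37e-09). The BJAB signal was at background, so the fold is a lower bound: measured against the background limit of the BJAB arrays, it was at least 3.85-fold higher in HBL-1. LINC01278, an X-linked gene whose start region is printed above, had 9.42 and 9.54 in HBL-1 with APRIL and 9.32 and 8.98 in HBL-1 with EDA, against 5.67 and 5.23 in BJAB with APRIL and 5.43 and 5.55 in BJAB with EDA. Its groups did not overlap either, with a difference of 3.84 ± 0.16 (limma adjusted p = 5.04e-08) and a bound of at least 2.81-fold. LINC01480 was the remaining LINC gene above the limit on every HBL-1 array and on no BJAB array, with a mean of 8.46 ± 0.25 in HBL-1 and 5.68 ± 0.48 in BJAB (SD, n = 4 arrays each) and a bound of at least 1.56-fold.

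LINC01088 had the largest difference in the other direction. Its signal was 4.57 and 5.34 in HBL-1 with APRIL and 5.82 and 4.52 in HBL-1 with EDA, against 9.90 and 10.01 in BJAB with APRIL and 10.32 and 9.90 in BJAB with EDA. The BJAB arrays lay close together, all HBL-1 arrays were at background, and the difference was -4.97 ± 0.28 (limma adjusted p = 4.74e-07), at least 4.09-fold lower in HBL-1. LINC01060 had 8.23 and 7.84 in HBL-1 with APRIL and 7.04 and 6.63 in HBL-1 with EDA, against 11.03 and 11.38 in BJAB with APRIL and 10.86 and 10.63 in BJAB with EDA. It was lower in HBL-1 by a difference of -3.54 ± 0.18 (limma adjusted p = 1.57e-07), and of its 4 HBL-1 arrays only APRIL replicate 1 lay above the limit. LINC02693 averaged 6.61 ± 0.29 in HBL-1 and 9.30 ± 0.09 in BJAB (SD, n = 4 arrays each), at least 2.47-fold lower in HBL-1.

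Altogether 8 LINC genes were above the limit on every BJAB array and on no HBL-1 array. Beside LINC01088 and LINC02693 these were LINC00397, LINC00426, LINC00685, LINC00891, LINC01234 and LINC03124, the last named after its values were seen. That all 8 were lower in HBL-1 follows from this choice. The bounds were at least 1.27-fold for LINC00426 and 2.49-fold for LINC01234 at the ends of the range of these 6. Above the limit on every array of 1 line and on none of the other were 1.17% of LINC genes and 3.02% of all genes. Over all genes, 373 were so in HBL-1 and 643 in BJAB. The limit was exceeded on no array by 93.7% of LINC genes and 67.4% of all genes, so these shares do not compare the genes that were above it. LINC00685 lies in the region that the X and Y chromosomes share and has a second cluster with the same values on every array, counted here once. The split of 3 and 8 depended on the limit: with the 99th percentile it was 0 and 4, and with the 95th percentile of the 612 negative control sets it was 5 and 6.

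**Figure D1:**
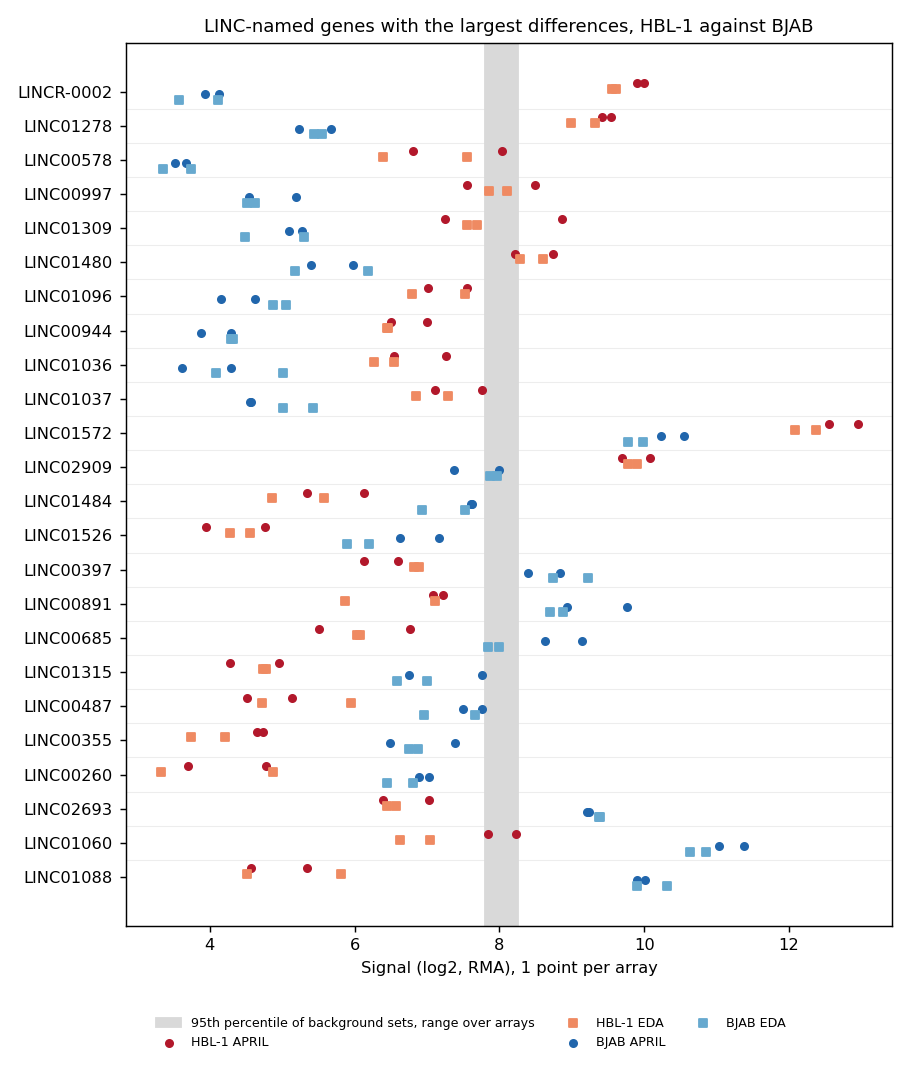
Log2 signal on each array (horizontal axis) of the 24 LINC genes with the largest differences between the lines among those that passed with no overlap, from highest in HBL-1 at the top to lowest in HBL-1 at the bottom. Red and orange points are HBL-1 arrays, blue points are BJAB arrays, circles are APRIL and squares are EDA, and the grey band is the range over arrays (7.80 to 8.25) of the 95th percentile of the background sets. Red and blue points are separate in every row, and for many rows both lie left of the band.

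Most of the other large differences lay between signals that were both at or near background. LINC00578 had 6.80 and 8.03 in HBL-1 with APRIL and 6.39 and 7.55 in HBL-1 with EDA, against 3.51 and 3.67 in BJAB with APRIL and 3.35 and 3.74 in BJAB with EDA. Its difference was 3.62 ± 0.31 (limma adjusted p = 9.05e-06), and no fold is given because no array exceeded the limit. LINC00997 followed with a difference of 3.28 ± 0.23, and LINC01309, LINC01096, LINC00944, LINC01036, LINC01037 and LINC02909 with 2.80, 2.55, 2.41, 2.41, 2.36 and 2.07. LINC02909 was above the limit on every HBL-1 array, with a mean of 9.87 ± 0.17 in HBL-1 and 7.80 ± 0.29 in BJAB (SD, n = 4 arrays each). LINC01572 was far above background in both lines. Its signal was 12.95 and 12.55 in HBL-1 with APRIL and 12.08 and 12.37 in HBL-1 with EDA, against 10.24 and 10.55 in BJAB with APRIL and 9.99 and 9.77 in BJAB with EDA. The lowest HBL-1 array stood above the highest BJAB array, with a difference of 2.35 ± 0.17 (limma adjusted p = 2.45e-06).

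Lower in HBL-1 with background-level signals were LINC00260, LINC00355, LINC00487, LINC01315, LINC01526 and LINC01484, with differences of -2.63, -2.54, -2.40, -2.34, -2.08 and -1.94. LINC00487 had 4.51 and 5.13 in HBL-1 with APRIL and 5.94 and 4.73 in HBL-1 with EDA, against 7.77 and 7.50 in BJAB with APRIL and 6.96 and 7.67 in BJAB with EDA. The highest HBL-1 array, that of EDA replicate 1, lay below the lowest BJAB array. LINC00397, LINC00685 and LINC00891 of the previous group had differences of -2.19, -2.31 and -2.25. Of the 883 LINC genes that no array put above the limit, 68 passed, 35 higher and 33 lower in HBL-1, or 7.7%, against 10.2% of all genes that no array put above it. Of the 50 that were above it on both arrays of at least 1 group, 33 passed, 12 higher and 21 lower, which is 66%, against 53.9% of all 10142 genes above it in that way. That share is not independent of the difference, since a gene can enter the 50 through the line in which it is high.

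The share of LINC genes that passed followed the signal level, as it did for coding genes. Among the 206 LINC genes in the dimmest decile of all genes 2.43% passed, against 1.55% of coding genes in that decile. In the 5th decile it was 12.7% of 126 LINC genes, against 16.5% of coding genes. In the 7th decile it was 32.1% of 56, against 46.9%, and in the 8th it was 55.6% of 27, against 58.7%. The 2 brightest deciles held 14 and 7 LINC genes, too few for a share to be read. Over all genes, coding and noncoding, the share was 1.64% in the dimmest decile, 13.6% in the 5th, 35% in the 7th and 50.4% in the 8th, so the LINC share was above it in the dimmest and 8th deciles and below it in the 5th and 7th. No test of these differences was made.

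**Figure D2:**
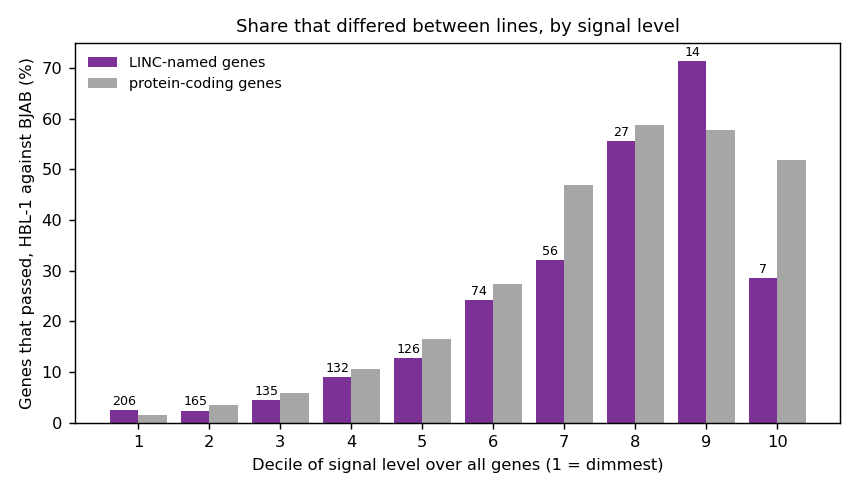
Percent of genes that passed for HBL-1 against BJAB (vertical axis) in each decile of mean signal over all genes (horizontal axis, 1 is dimmest), for LINC genes in purple and protein-coding genes in grey. The numbers above the purple bars are the LINC genes in that decile, which fall to 7 in the brightest, and both shares are far higher in the 8th decile (55.6% and 58.7%) than in the first (2.43% and 1.55%).

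The line differences were measured under each ligand too. With APRIL, 76 LINC genes passed, 32 higher and 44 lower in HBL-1, or 8.07%, against 16.6% of all genes (7.92% higher and 8.72% lower). With EDA, 64 passed, 28 higher and 36 lower, or 6.79%, against 16.6% of all genes (6.22% higher and 10.3% lower). The split with EDA was 33 higher and 32 lower under quantile normalization and under cyclic loess, and without BJAB EDA replicate 2 the higher count was 18. With both ligands 49 LINC genes passed, each of them in the same direction. The 2 contrasts use different arrays of the same 2 lines and share 1 variance estimate per gene, so they are not independent. The same overlap over all genes was not counted. Without BJAB APRIL replicate 1 the count with APRIL was 49, and with genes under the background limit left out it was 29 with APRIL and 28 with EDA. Of the 106 LINC genes that passed over both ligands, 2 had differences of opposite sign under the ligands, LINC00847 and LINC01366. With EDA the HBL-1 and BJAB arrays overlapped for both genes, so the sign of that difference is not settled.

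A list of 39 LINC genes often studied in cancer or lymphocytes was written for this work, and 28 were measured. Of these, 6 were higher in HBL-1, 5 were lower and 17 did not pass, with a median difference of 0.00 beside 0.05 for all LINC genes. The 11 that passed are 39.3% of the 28, beside 11.3% of all LINC genes and 24.2% of all genes, and the list was written with earlier results of these arrays known. LINC-PINT, a noncoding RNA induced by the tumour suppressor p53, had 9.09 and 8.57 in HBL-1 with APRIL and 8.89 and 9.31 in HBL-1 with EDA, against 7.84 and 7.77 in BJAB with APRIL and 6.87 and 7.63 in BJAB with EDA. The groups did not overlap, and the difference was 1.44 ± 0.21 (limma adjusted p = 4.94e-04). Of the BJAB arrays only APRIL replicate 1 lay above the background limit, and barely, so 1.44 is not a fold in RNA. LINC00158 was higher by 1.67 and LINC01480 by 2.78, while LINC00426, LINC00487 and LINC01234 were lower, by differences of -1.83, -2.40 and -1.87. LINC00158 and LINC00487 were under the background limit on every array, and LINC01480, LINC00426 and LINC01234 were above it in a single line. None of 8 LINC genes known to encode a small protein was measured under a LINC name.

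A list of long noncoding RNAs with other names, written with earlier results of these arrays known, was compared in the same way. Of 40 listed, 23 were measured, 5 were higher in HBL-1, 7 were lower and 11 did not pass. Thus 52.2% passed, beside 24.2% of all genes and 15.8% of all 1545 other long noncoding RNA genes tested. CRNDE, named for its high level in colorectal tumours, averaged 11.39 ± 0.35 in HBL-1 and 4.38 ± 0.27 in BJAB (SD, n = 4 arrays each), at least 11.8-fold higher in HBL-1, since BJAB was at background. DLEU1, from a region often deleted in leukaemia, was at least 2.35-fold higher. FIRRE and the interferon-induced NRIR were higher by 1.71 and 1.18 on the log2 scale, but NRIR was under the background limit on every array and FIRRE was above it on 2 HBL-1 arrays alone. IFNG-AS1, an antisense neighbour of the interferon gamma gene, averaged 5.27 ± 0.52 in HBL-1 and 9.97 ± 0.26 in BJAB, at least 3.93-fold lower in HBL-1. JPX, CYTOR and NORAD were lower in HBL-1, by differences of -2.45, -2.43 and -1.41.

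Both lines carried B-cell markers. The 5 of 7 listed markers that were measured, MS4A1, CD79A, CD79B, PAX5 and BLNK, had means of 10.08 to 16.84 in HBL-1 and 11.08 to 16.62 in BJAB. Of these, 2 were higher in HBL-1, 1 was lower and 2 did not pass. BLNK was higher by 3.71 and CD79A by 0.46, and MS4A1 had a difference of -2.62. Of 7 T and NK cell markers 3 were lower in HBL-1 and none was higher, against 13.9% lower and 10.3% higher over all genes. CD3G averaged 5.12 in HBL-1 and 11.42 in BJAB. CD3D, with 3.96 and 5.69, was under the background limit on every array. CD3E, with 6.73 and 7.82, was under it in HBL-1 and near it in BJAB. The summed log2 signal of the 7 was 33.7 to 35.0 in HBL-1 and 42.9 to 44.7 in BJAB, where CD8A and GNLY stayed at 4.15 and 3.45. The largest part of the gap between the sums was CD3G, with a difference of -6.30. None of 6 myeloid markers passed, with sums of 29.9 to 31.8 in HBL-1 and 30.7 to 31.4 in BJAB. Among 6 markers of epithelium and fibroblasts, HBL-1 had 3 at a higher and 1 at a lower level, with sums of 41.4 to 44.4 in HBL-1 and 44.8 to 45.4 in BJAB, where DCN averaged 12.60. The part of these markers in the LINC differences was not tested. Fewer cells carrying an RNA and less RNA per cell cannot be told apart in bulk samples.

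The protein-coding gene nearest to each LINC gene in RefSeq was measured on the same arrays. This gave 846 pairs with 698 different neighbours, so some pairs share a neighbour. The line differences of a LINC gene and its neighbour were weakly related across pairs, with a Pearson r of 0.13 and a Spearman rho of 0.13 as a description over genes on shared arrays. Of 96 LINC genes that passed and had a neighbour, 42 had a neighbour that passed, or 43.8%, of which 32 went the same way and 10 the opposite way. Of the 750 that did not pass, 232 had such a neighbour, or 30.9%, and 34.5% of all coding genes passed.

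Several of the most unequal LINC genes lay beside a coding gene with a large difference of its own. LINC00578 lies nearest TBL1XR1, a subunit of the NCoR and SMRT corepressor complexes, which averaged 13.72 ± 0.21 in HBL-1 and 11.14 ± 0.21 in BJAB (SD, n = 4 arrays each), a difference of 2.58 beside 3.62 for LINC00578. TBL1XR1 was the nearest coding gene of 4 LINC genes, 3 of which were higher in HBL-1. LINC00260 overlaps ATP2B4, a plasma membrane calcium pump gene, on the same strand, so their probes may read the same transcripts. ATP2B4 was above the background limit on 3 of 4 HBL-1 arrays and averaged 8.57 ± 0.35 in HBL-1 and 14.08 ± 0.23 in BJAB, a difference of -5.51 beside -2.63. PPP2R3B, a regulatory subunit of protein phosphatase 2A, was at background in HBL-1 and at least 3.09-fold lower there, beside at least 1.32-fold for its neighbour LINC00685. PAQR3, a Golgi protein that retains Raf kinase, averaged 8.82 ± 0.80 in HBL-1 and 10.76 ± 0.31 in BJAB, a difference of -1.94, beside LINC01088 at least 4.09-fold lower. Where 1 or both genes of a pair lay at background, as LINC00578 and LINC00260 did, their differences side by side do not compare sizes.

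Other pairs differed in opposite directions, or the neighbour differed little. CMPK2, an interferon-induced mitochondrial nucleotide kinase gene, was higher in HBL-1 by 2.38 while LINC00487 was lower by a difference of -2.40. KBTBD2, an adaptor of a cullin ubiquitin ligase, differed by -0.99 beside 3.28 for LINC00997, and TMEM132B by -1.80 beside 2.41 for LINC00944, both under the background limit on all arrays. LINC01036 and LINC01037 share the neighbour PLA2G4A, the gene of cytosolic phospholipase A2, which was higher by 0.90, under the limit on all arrays. IRAG2, a lymphoid endoplasmic reticulum protein gene beside LINC02909, was higher by 0.88. SPIN4 beside LINC01278, CEACAM21 beside LINC01480, PMFBP1 beside LINC01572, TRIML1 beside LINC01060 and KCNJ12 beside LINC02693 did not pass, with differences of -0.38, -0.03, 0.06, -0.28 and 0.02.

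**Figure D3:**
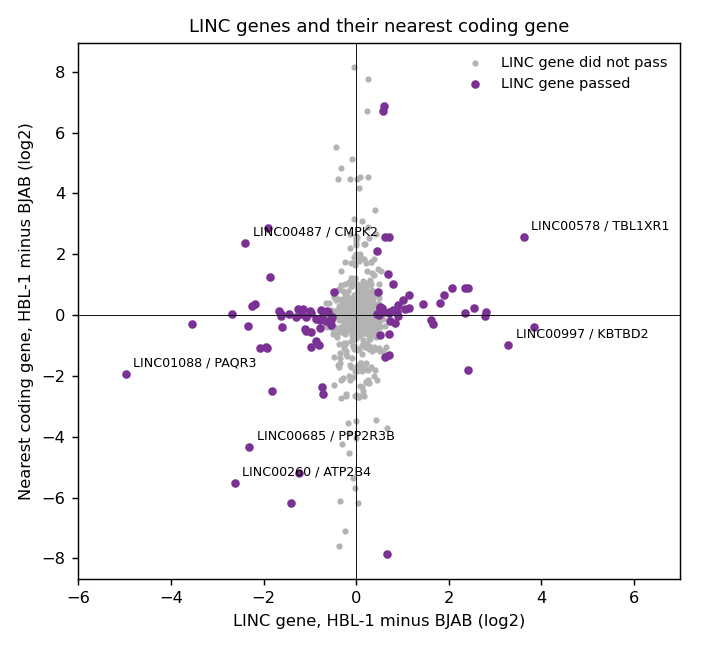
Line difference (HBL-1 minus BJAB, log2) of each LINC gene (horizontal axis) and of its nearest protein-coding gene (vertical axis) for 846 pairs. Purple points are LINC genes that passed and grey points those that did not, and some of the described pairs are labelled. Many of the purple points lie close to the horizontal line at 0, where the neighbour hardly differs, and r over all pairs was 0.13.

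Promoters were found in the RefSeq table for 587 LINC genes, of which 35 were higher in HBL-1, 35 were lower and 517 did not pass. The median GC content was 54.7% in the higher, 51% in the lower and 47.7% in the remaining LINC promoters, against 58.3% over 27305 promoters of all genes, and the median number of CpG dinucleotides was 7, 7 and 4, against 14. An E-box stood in 8 of the 35 higher promoters (22.9%), in 11.4% of the lower and in 5.8% of the remaining ones, against 7.43% of all promoters. A CCAAT box stood in 31.4% of the higher promoters and in 21 of the 35 lower ones (60%), against 36.6% of the remaining ones and 35.7% of all promoters. The TATA box stood in 14.3% of the higher and 17.1% of the lower promoters, against 12% of all, and the ETS letters GGAAGT in 28.6% and 14.3%, against 23.2% of all. The kappa B motif stood in none of either group of 35 and in 1.63% of all promoters. The interferon-stimulated response element and the octamer of B-cell promoters each stood in 0 of the higher and 2 of the lower promoters, against 3.65% and 1.8% of all promoters. Motifs were sought on both strands and may overlap. E-box and GC content both differed between these sets, and their relation was not tested.

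The second comparison asks which LINC genes changed with APRIL relative to EDA. In HBL-1, no LINC gene passed (limma; lowest adjusted p = 0.391), against 1 of all genes (0.00297%). In BJAB none of the 942 passed either (lowest adjusted p = 0.901), against 0% of all genes. At an unadjusted p under 0.05 there were 65 in HBL-1, or 6.9% against 8.83% of all genes, and 40 in BJAB, or 4.25% against 4.06%. Averaged over both lines the count was 0 again (lowest adjusted p = 0.589), with 55 at an unadjusted p under 0.05, or 5.84% against 6.91%. The median APRIL minus EDA difference of the LINC genes was 0.01 in HBL-1, against 0.10 for all genes, and -0.02 in BJAB, against 0.00 for all genes. With array medians made equal, the medians were 0.04 for all genes and -0.06 for the LINC genes in HBL-1, and 0.03 and 0.01 in BJAB. Over the genes left when dim genes were dropped, they were 0.18 for all genes and 0.15 for the 50 LINC genes in HBL-1, and 0.04 and 0.15 in BJAB, so the sign of the LINC median depended on the setting in both lines.

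The size of a change in signal that these arrays leave possible can be read from the intervals. For the 883 LINC genes that no array put above the background limit, an interval on the signal does not bound the change in RNA. The 95% confidence interval of the APRIL minus EDA difference lay within 2-fold in either direction for 755 of the 942 LINC genes in HBL-1, for 791 in BJAB and for 921 over both lines. For the rest the interval reached a 2-fold change. Its median half-width was 0.55 within a line and 0.39 over both lines.

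LINC01060, the LINC gene of the second largest difference on the BJAB side, had the largest APRIL minus EDA difference in HBL-1. Its signal there was 8.23 and 7.84 with APRIL, against 7.04 and 6.63 with EDA, so the groups did not overlap. The difference was 1.20 (95% interval 0.65 to 1.76, limma adjusted p = 0.391). In BJAB it was 11.03 and 11.38 with APRIL, against 10.86 and 10.63 with EDA, a difference of 0.46. LINC00605 and LINC00393 had differences of 0.75 and 0.74 in HBL-1 at signals near 4, and LINC01127, LINC00426 and LINC01366 had differences of -1.09, -1.04 and -0.98. LINC00426 had 5.90 and 6.11 in HBL-1 with APRIL, against 6.88 and 7.20 with EDA, and in BJAB the difference was -0.03.

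In BJAB the members with the smallest p were LINC01392, LINC00910 and LINC00882, with APRIL minus EDA differences of 0.94, 0.74 and 0.86, and LINC01189, LINC01072 and LINC00930, with -0.92, -0.74 and -0.65. LINC01392 had 4.83 and 4.56 in BJAB with APRIL, against 3.68 and 3.84 with EDA, all at background. Over both lines they were LINC01060, LINC00852 and LINC00882, with 0.83, 0.79 and 0.79, and LINC01072, LINC00426 and LINC01607, with -0.53, -0.53 and -0.52. LINC00852 had 7.30 and 7.07 in HBL-1 with APRIL against 6.46 and 6.25 with EDA, and 7.68 and 8.12 in BJAB with APRIL against 6.92 and 7.38 with EDA. Its groups did not overlap within either line, which with 2 arrays a group held for 36.5% of all genes in HBL-1 and 34.3% in BJAB, and the adjusted p over both lines was 0.589 in limma. For all genes the arrays of the ligands did not overlap over both lines in 2.06%, and for the LINC genes in 1.91%.

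**Figure D4:**
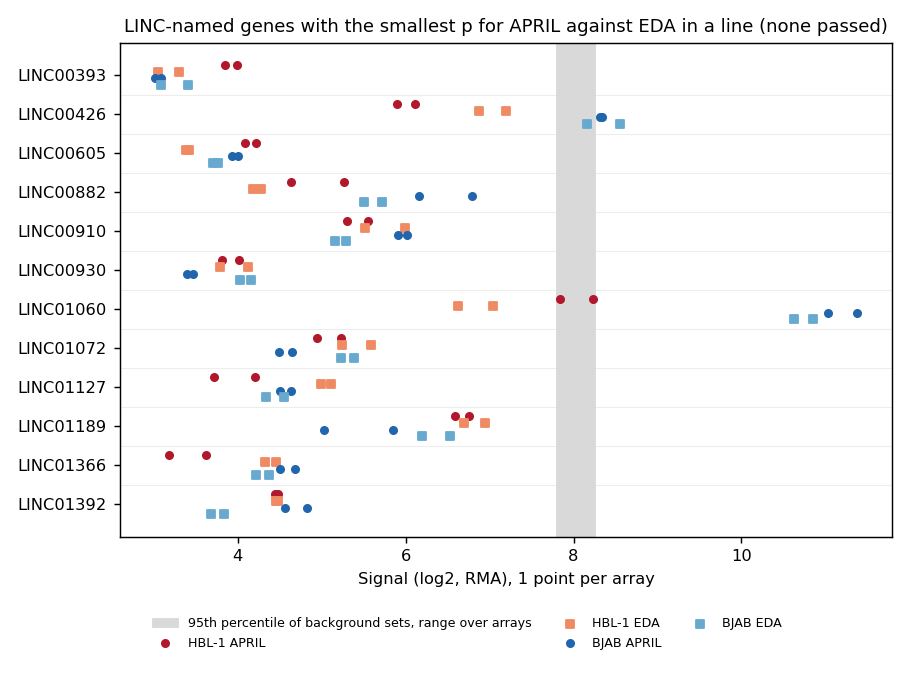
Log2 signal on each array (horizontal axis) of the 12 LINC genes with the smallest unadjusted p for APRIL against EDA in HBL-1 or in BJAB, 3 in each direction, none of which passed after adjustment. Colours, symbols and the grey band are as in the plot of the lines. LINC01060 stands apart at the right, and all arrays of 10 of the 12 lie left of the band.

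The third comparison asks whether the APRIL minus EDA difference itself differed between HBL-1 and BJAB. No LINC gene passed (limma; lowest adjusted p = 0.843), against 0% of all genes, and 48 had an unadjusted p under 0.05, or 5.1% against 5.63% of all genes. The differences of responses, HBL-1 minus BJAB, with the smallest p on each side were 1.55 for LINC00847, 1.47 for LINC01485 and 0.94 for LINC01140 on one side, and -1.28 for LINC01366, -1.22 for LINC01127 and -1.14 for LINC01209 on the other. The median half-width of the interval was 0.77 for this contrast, and the interval lay within a 2-fold change of signal in either direction for 377 of the 942. It does not bound the change in RNA of genes under the background limit.

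**Figure D5:**
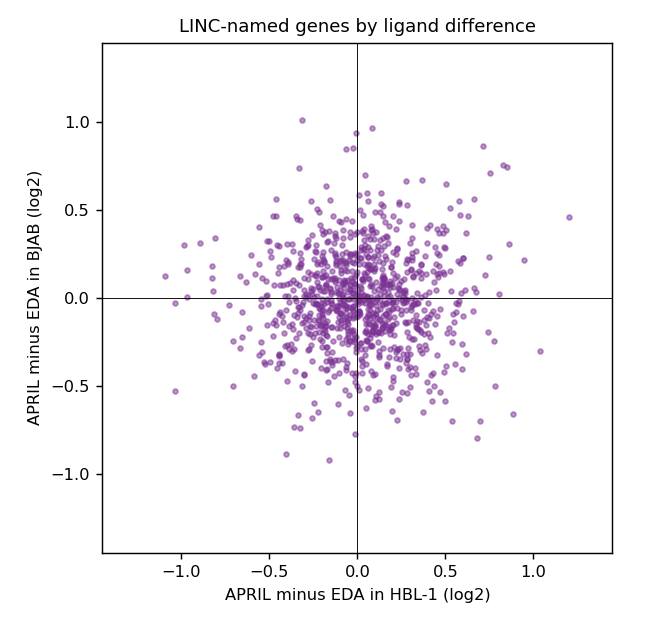
APRIL minus EDA difference (log2) in HBL-1 (horizontal axis) and in BJAB (vertical axis) for the 942 LINC genes, 1 point per gene. The points gather around 0 in both lines, and the farthest to the right is LINC01060 at 1.20 in HBL-1 and 0.46 in BJAB.

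Across arrays, replicates of a group correlated at r = 0.959 to 0.972 over the LINC genes, against 0.989 to 0.993 over all genes, which are not independent replicates. Arrays of different ligands in 1 line correlated at 0.958 to 0.971 over the LINC genes, the same range to within 0.001, and arrays of different lines at 0.891 to 0.91. The median replicate SD of the LINC genes was 0.209 in HBL-1 with APRIL, 0.173 in HBL-1 with EDA, 0.16 in BJAB with APRIL and 0.154 in BJAB with EDA. HBL-1 with APRIL replicate 2 also had the highest median of the background sets, 3.77 against 3.57 to 3.65 on the other arrays. Without it, 100 LINC genes passed between the lines over both ligands, 62 with APRIL and 0 for APRIL against EDA in HBL-1, where the difference of LINC01060 was 1.40 (limma adjusted p = 0.588).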

How the data were processed

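Values are log2 signals that the authors deposited, made with RMA (Affymetrix Expression Console), as the submitters' processing notes state. Their version, the annotation release and the build are not given in the sources used here. The values ran from 2.36 to 19.38.

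A cluster was used where it had 1 symbol (36176 of 138745), with the cluster of highest mean kept per gene. All 33616 genes were fitted with 1 mean per group in limma 3.58.1 (R 4.3.3; lmFit and eBayes, 4 residual and 6.02 prior degrees of freedom). Two-sided p-values carry a Benjamini-Hochberg adjustment over all genes, with a threshold of 0.05, and every adjusted p is limma's. Intervals are 95% intervals. Arrays have no read depth, and their number limits the precision.

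The LINC genes, lists, motifs and tests were chosen with earlier results of these data known. Named were the 12 largest passing differences without overlap in each direction between the lines, the 3 smallest p-values in each direction for each ligand comparison, the 8 highest signals, and up to 6 passing members of the list of studied LINC genes. Neighbouring coding genes and up to 4 other noncoding RNAs per direction were named beside them. The 7 LINC genes on Y were counted and not named. Markers without a single-symbol cluster were not analysed here. Promoters and neighbours come from RefSeq tables of GRCh38.p14. Alternatives changed cluster choice, dim-gene filter, normalization, variance model, array weights, arrays fitted, replicate block and arrays left out.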

Additional observations from a re-analysis of the deposited data

Results flagged for a closer look

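In 5 of the 18 LINC genes named for a ligand comparison, the APRIL arrays lay on one side of the EDA arrays in HBL-1 and on the opposite side in BJAB, without overlap in either line. The difference of the responses, HBL-1 minus BJAB, was 1.55 for LINC00847, 1.47 for LINC01485, 0.94 for LINC01140, -1.14 for LINC01209 and -1.28 for LINC01366. All 5 had been named for the smallest interaction p, so the opposite pattern among them follows from that choice. That difference was tested as an interaction, and none of the 5 passed (limma adjusted p = 0.843 for each). Such opposite patterns occurred in 52 of the 942 LINC genes, or 5.52%, and in 5.49% of all genes. LINC00847 had 9.05 and 9.04 in HBL-1 with APRIL against 8.32 and 7.99 with EDA, and 7.94 and 7.21 in BJAB with APRIL against 8.31 and 8.15 with EDA. LINC01366 had 3.62 and 3.18 in HBL-1 with APRIL against 4.32 and 4.45 with EDA, and 4.68 and 4.51 in BJAB with APRIL against 4.37 and 4.22 with EDA.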

How the results depend on the processing

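The ligand comparisons kept a count of 0 LINC genes under every alternative run. The line counts were 106 over both ligands, 76 with APRIL and 64 with EDA. Leaving out dim genes, which kept 50 LINC genes in the fit, gave 38, 29 and 28 and turned the median LINC difference between the lines negative, at -0.361, -0.32 and -0.371, over fewer genes. Leaving out 1 array at a time gave 84 to 104, 49 to 75 and 43 to 63, the 49 without BJAB APRIL replicate 1. LINC01128, whose line difference of -0.07 did not pass, became 0.032 under quantile normalization and 0.046 under cyclic loess, and ran from -0.328 to 0.179 as single arrays were left out. The cause was not tested. The 99th percentile of the background sets left 18 and 16 LINC genes above it in HBL-1 with APRIL and with EDA, and 24 and 21 in BJAB with APRIL and with EDA. The nearest coding gene on the same strand gave r = 0.10, against 0.16 for the nearest on either strand in the same 587 LINC genes. Replicate numbers showed no pairing, with correlations of deviations of -0.02 in HBL-1 and 0.06 in BJAB over 2 pairs each. The fit with a replicate block gave 102 LINC genes over both ligands, 76 with APRIL, 60 with EDA and 0 for each ligand comparison. A fit on the arrays of a comparison alone was not run for contrasts that use all 8 arrays.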
